A study of Mus musculus with 2 samples.

Results

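The genes described here are 9 of the 32285 features counted on 2 Visium sections of mouse lung, and they mark the endothelial cells of the lung's smallest vessels. They were chosen by name and not by their level: Car4, Ednrb, Apln and Kdr for aerocytes, Gpihbp1, Aplnr, Plvap and Tmem100 for general capillary cells, and Vwf for endothelium of larger vessels. Earlier results of these data were known at that choice, so comparisons with all genes are not independent of them. Visium captures polyadenylated RNA on a grid of spots 100 µm apart, so each spot is a small region that can hold several cells of different types. The metastatic section came from a mouse with a primary tumour of its own (4T1 m.f.p.): 1000000 cells of 4T1, a mammary tumour line syngeneic to Balb/c mice, were placed in the mammary fat pad of a female Balb/c mouse aged 6 to 8 weeks, and spread from there to the lung. Lungs were taken between day 21 and day 23. The control section came from a lung labelled as normal with no treatment. The strain, sex and age of that mouse are not given in the sources used here. There was 1 section for each condition, so section, animal and library cannot be told apart from the condition, and no p-value is given anywhere.

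Alveolar gas exchange takes place across a capillary net built from a pair of endothelial cell types. Aerocytes are large, thin cells that lie against alveolar type 1 (AT1) epithelial cells and are specialised for gas exchange and the trafficking of leukocytes, while general capillary cells regulate vessel tone and act as progenitors that maintain and repair the net. Both types talk through apelin: aerocytes make the ligand, and general capillary cells carry its receptor. Von Willebrand factor, by contrast, is stored in the endothelium of arteries and veins and is sparse in alveolar capillaries.

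Each gene matched a single feature. In the GRCm38 annotation, Car4 lies at chr11:84957786-84966044 on the plus strand and Ednrb at chr14:103814625-103844402 on the minus strand. Apln lies at chrX:48025146-48034853 and Kdr at chr5:75932827-75978458, both on the minus strand. Of the general capillary genes, Gpihbp1 lies at chr15:75596628-75599481 and Aplnr at chr2:85136225-85139923, both on the plus strand. Plvap lies at chr8:71497765-71511752 on the minus strand and Tmem100 at chr11:90030348-90036508 on the plus strand. Vwf spans chr6:125546774-125686679 on the plus strand. Counts were given per gene, so its exons and untranslated regions were not told apart.

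RefSeq promoter sequence on GRCm38.p6 was at hand for 4 of the 9 genes, all of the aerocyte group. Those of Car4 and Apln are shown because these 2 genes differed from each other in lung far from the metastases, where Apln was lower than in control lung and Car4 was close to it. Each is the 250 bases before the start that RefSeq gives, which for Car4 lies upstream of the annotated start above. The windows are for Car4 chr11:84957504-84957753 on the plus strand and for Apln chrX:48034854-48035103 on the minus strand, and capitals mark a match to CGGAAG, the core bound by ETS factors, on either strand.
Car4 promoter: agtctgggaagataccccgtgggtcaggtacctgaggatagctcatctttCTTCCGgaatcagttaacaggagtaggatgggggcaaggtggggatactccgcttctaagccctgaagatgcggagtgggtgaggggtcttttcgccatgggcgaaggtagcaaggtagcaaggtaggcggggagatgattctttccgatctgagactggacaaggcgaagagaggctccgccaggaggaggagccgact
Apln promoter: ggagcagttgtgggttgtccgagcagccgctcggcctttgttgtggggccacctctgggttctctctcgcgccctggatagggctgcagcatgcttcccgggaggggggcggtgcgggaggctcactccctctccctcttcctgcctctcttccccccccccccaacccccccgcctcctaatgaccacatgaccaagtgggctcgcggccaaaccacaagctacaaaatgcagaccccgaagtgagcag
The Car4 promoter held 1 match, and those of Apln, Ednrb and Kdr held 0. Of 32851 promoters of the same length, 13.6% held at least 1 match. ACGTG or GCGTG, the letters of the hypoxia response element, were found on either strand 0 times for Car4, 0 times for Apln, 1 time for Ednrb and 2 times for Kdr, and in 38.6% of all promoters. These matches are descriptions of the letters in these windows only.

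Spots of the metastatic section were sorted into zones by their distance from the metastases. Expression clusters, made without the endothelial genes, were ranked by a list of 4T1 cancer cell genes, and the cluster with the highest score formed the metastasis-core. The core held 157 of 1110 spots, the margin (up to 200 µm from the core) 98, the intermediate zone (200 to 500 µm) 173 and far lung (over 500 µm) 678. The regions drawn by the study came from cell type scores and were not used here, so this core is not the same set of spots as theirs, and with 8 clusters it was smaller, at 101 spots. The remaining 4 spots of the core cluster stood in small groups and were left out. The control section held 1888 spots. Levels are given as counts per 10000 (CP10k), the counts of a gene summed over a zone and divided by all counts of that zone, with an exact 95% Poisson interval that covers counting error only. Total counts were 2471877 in the core, 1419557 at the margin, 2209910 in the intermediate zone, 8539225 in far lung and 20329126 in the control section, and the median spot held 14727 counts in the core, 10765 in far lung and 9643.5 in control lung.

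The core was made of 2 metastases. The larger had 121 spots at the tip of the section and the smaller 36 spots within the lung. Mki67, a gene of dividing cells, is on the list that picked the core, so a high level there was built in. It was 12.6 times its far-lung level in the larger (95% interval 9.66 to 16.7) and 17.9 times in the smaller (11.6 to 27.3). The whole 4T1 list stood at 7.78 CP10k in the core, 2.43 in far lung and 3.34 in control lung, and 2 of its genes, Krt14 and Prl2c2, had 0 counts in the core. Krt8, an epithelial keratin of the list, was at 1.57 times its far-lung level in the larger metastasis and 0.835 times (0.543 to 1.23) in the smaller, an interval that includes 1. Krt18, another keratin of the list, was at 2.01 times in the larger and 2.16 times (1.51 to 3.01) in the smaller. Mmp3, Ccl7 and Ccl2 led the core cluster. A macrophage list was 3.43 times its far-lung level there. The map of spots shows the zones and the summed levels of each gene group.

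**Figure D1:**
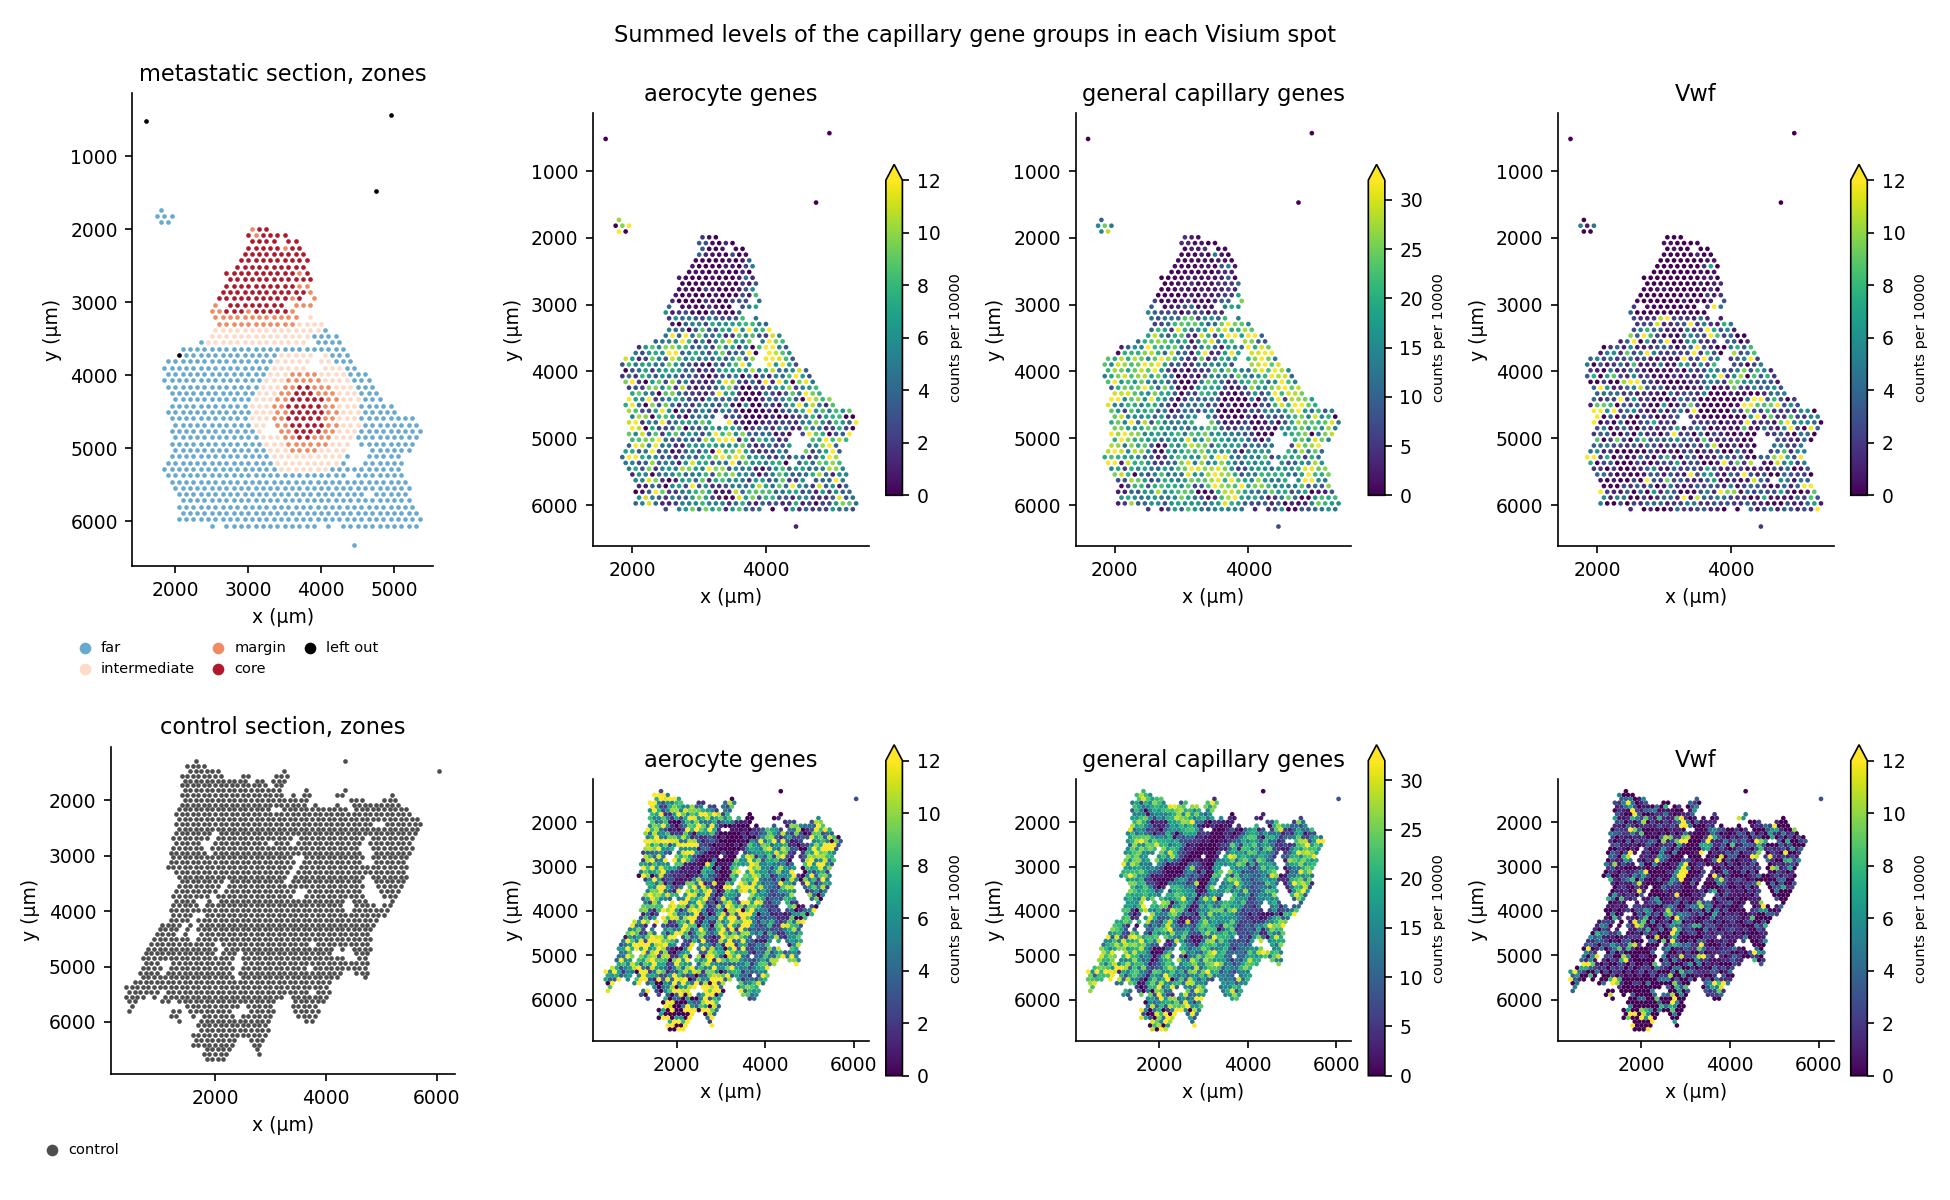
Spots of the metastatic section (top) and the control section (bottom) at their array positions in µm, coloured by zone and by the summed counts per 10000 of the 4 aerocyte genes, the 4 general capillary genes and Vwf, with the colour scale capped at the arrowhead. Both metastases are areas of low signal for each gene group, and the core of the larger lies at the tip of the section.

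All 9 genes were lower in the core than in far lung. The summed level of the 9 was 2.95 CP10k in the core, 18.0 at the margin, 22.8 in the intermediate zone, 23.8 in far lung and 21.3 in control lung. Each of the 9 was at least 1.5-fold lower in the core, while 22.1% of the 11518 genes with enough counts were lower by that much and 37.9% were higher. The median core to far ratio of the 9 genes was 0.114, against 1.24 over all genes tested. All 9 passed the minimum of 50 counts over the zones compared. A spot with fewer endothelial cells and a spot with less RNA of these genes per endothelial cell give the same lower value, and in these sections they cannot be told apart.

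Of the aerocyte genes, Car4 encodes a carbonic anhydrase anchored on the luminal face of the endothelium. Its level was 0.142 CP10k in the core (0.0986 to 0.197, from 35 counts), 1.3 at the margin, 1.98 in the intermediate zone, 2.08 in far lung and 2.20 in control lung. Car4 in the core was 14.7-fold lower than in far lung (ratio 0.0682, 0.0474 to 0.0953), and its core interval lay below that of every other zone. Kdr, the main receptor for VEGF-A, stood at 0.243 CP10k in the core, 1.91 at the margin, 2.43 in the intermediate zone, 2.13 in far lung and 2.46 in control lung, 8.78-fold lower in the core than far away. Ednrb, the endothelin type B receptor, and Apln, the apelin ligand, kept more of their far-lung level. Ednrb stood at 0.210, 0.366, 0.629, 0.615 and 0.601 CP10k in core, margin, intermediate zone, far lung and control lung, a core to far ratio of 0.342 (0.252 to 0.456). Apln, the sparsest of the 9, was at 0.0728 CP10k in the core from 18 counts, 0.211 at the margin, 0.231 in the intermediate zone, 0.252 in far lung and 0.481 in control lung, with a core to far ratio of 0.289 (0.168 to 0.468). The intervals of the Ednrb and Apln ratios lie above those of Car4 and Kdr.

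Ednrb in the core was an uneven signal. Of its 52 core counts, 32 (61.5%) came from 5 of the 157 spots, only 19 spots had a count, and 1 spot alone held 12. For the other 8 genes the 5 highest spots held between 15.4% and 35.0% of the counts. All the Ednrb counts of the core were in the larger metastasis, whose ratio to far lung was 0.376. The smaller had 0 counts, which allows a ratio of up to 0.268.

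The general capillary genes parted in the same way, with Plvap and Aplnr keeping more than Gpihbp1 and Tmem100. Gpihbp1 carries lipoprotein lipase across the capillary wall and holds it on the luminal surface. It stood at 0.340 CP10k in the core, 2.90 at the margin, 3.71 in the intermediate zone, 4.02 in far lung and 3.13 in control lung, 11.8-fold lower in the core than in far lung. Tmem100, a membrane protein downstream of the BMP9 and ALK1 pathway of endothelium, stood at 0.235 CP10k in the core, 2.94 at the margin, 3.84 in the intermediate zone, 4.31 in far lung and 3.49 in control lung, a core to far ratio of 0.0545 (0.0413 to 0.0706), or 18.4-fold lower. This interval overlaps that of Car4. Plvap forms the diaphragms of endothelial fenestrae and caveolae. Its level was 1.31 CP10k in the core from 324 counts, 5.02 at the margin, 6.10 in the intermediate zone, 6.72 in far lung and 6.17 in control lung, which is 5.13-fold lower in the core (ratio 0.195, 0.174 to 0.218). Aplnr, the apelin receptor, was at 0.150, 0.465, 0.507, 0.584 and 0.691 CP10k in the same order of zones, 3.90-fold lower in the core than far away.

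Vwf, the large vessel gene, was also low in the core. It stood at 0.243 CP10k there, 2.95 at the margin, 3.42 in the intermediate zone, 3.07 in far lung and 2.09 in control lung, a core to far ratio of 0.0791 (0.0602 to 0.102) and 12.6-fold lower. The interval of this ratio overlaps those of Car4 and Gpihbp1, so no order between the large vessel gene and these capillary genes can be read from it.

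Core spots were deeper than far spots, and the shares of spots with a count ran the same way as the levels. A count of Car4 was found in 18.5% of core spots and 79.6% of far spots. After thinning each spot to 5000 counts, which left out 15 core and 49 far spots, the shares were 7.75% and 62.2%. For Plvap they were 77.7% and 95.9% before thinning, and 40.1% and 90.9% after it. The plot of levels by zone sets the 9 genes side by side.

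**Figure D2:**
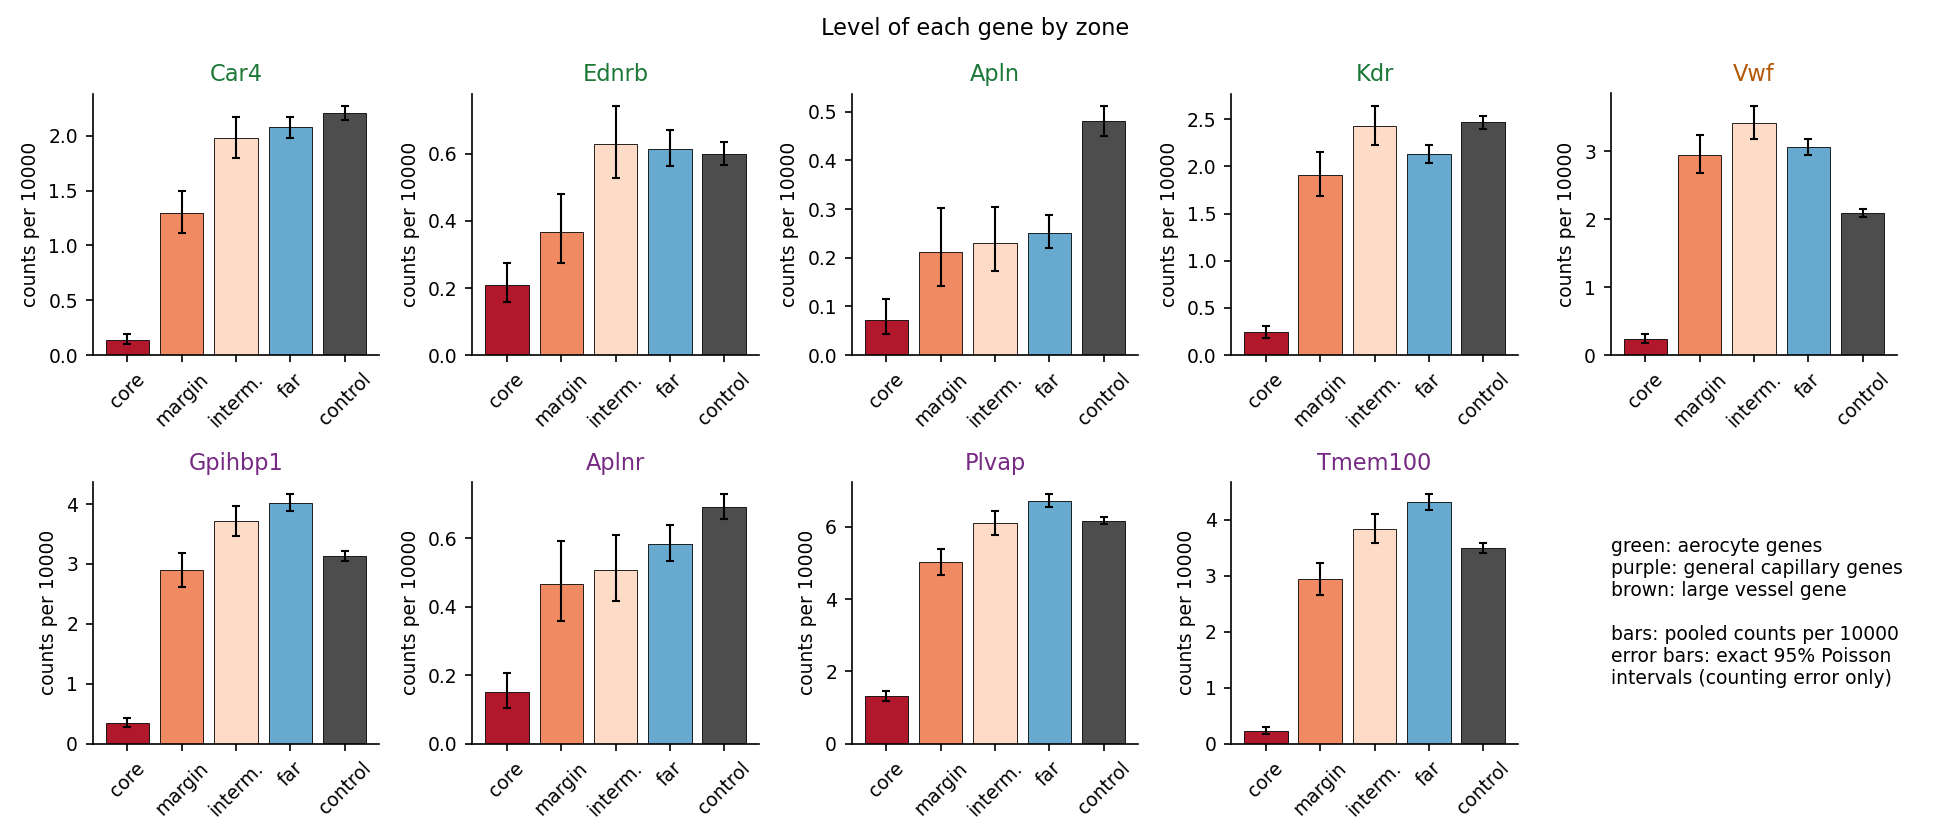
Level of each of the 9 genes in counts per 10000 in the core, margin, intermediate zone, far lung and control lung, with exact 95% Poisson intervals as bars. Every gene is lowest in the core, Apln is lower in all zones of the metastatic section than in control lung, and Vwf is higher outside the core than in control lung.

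Next, the levels were set against the endothelial RNA of each zone. A list of 15 genes shared by endothelial cells stood at 7.82 CP10k in the core, 48.2 at the margin, 57.7 in the intermediate zone, 58.9 in far lung and 59.0 in control lung. All 15 were at least 1.5-fold lower in the core than in far lung, as were 22.1% of all genes. The list was the divisor below. The list's core to far ratio of 0.133 (0.127 to 0.139) is close to the 0.132 of the aerocyte sum and the 0.130 of the general capillary sum. Per 100 counts of this list, the aerocyte sum in the core was 0.991 of that in far lung and the general capillary sum 0.980. Single genes of each group lay on both sides of these sums.

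Per endothelial count, 3 genes were at least 1.5-fold higher in the core and 4 at least 1.5-fold lower. Ednrb was 2.58 times its far-lung value (1.90 to 3.43), Apln 2.18 times (1.27 to 3.53) and Aplnr 1.93 times (1.34 to 2.70). Since endothelial RNA was scarce in the core, 93.1% of all genes were higher by this measure, and the 3 are read against that share. The 4 lower genes were Tmem100 at 0.410 (0.311 to 0.532), Car4 at 0.514 (0.357 to 0.718), Vwf at 0.596 (0.454 to 0.770) and Gpihbp1 at 0.636 (0.506 to 0.790). Of all genes, 2.59% were at least 1.5-fold lower per endothelial count. The median over all genes was 9.34 by this measure, so that share cannot show whether these 4 stand out among endothelial genes. Kdr at 0.858 (0.652 to 1.11) did not differ beyond its counting error, and Plvap was 1.47 times its far-lung value (1.31 to 1.64). Of the 15 genes in the divisor, Ecscr (0.64 of its far-lung CP10k) and Eng (0.22) were less reduced in the core than genes such as Cldn5 (0.08) and Cdh5 (0.11). Without these 2 genes, Car4 and Tmem100 were the members at least 1.5-fold lower and Plvap joined those higher, at 1.83. Most of these values rested on the larger metastasis. In the smaller alone, none of the 3 higher genes was higher, with Apln at 0.636, Aplnr at 0.822 and Ednrb at 0. These rest on 1, 3 and 0 counts in that core. For Apln and Aplnr that is too few to tell whether they were higher there. Of the 4 lower genes Tmem100, at 0.334, was the 1 still past 1.5-fold there, with Car4 at 0.926, Gpihbp1 at 0.836 and Vwf at 1.25. Plvap was at 0.858.

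**Figure D3:**
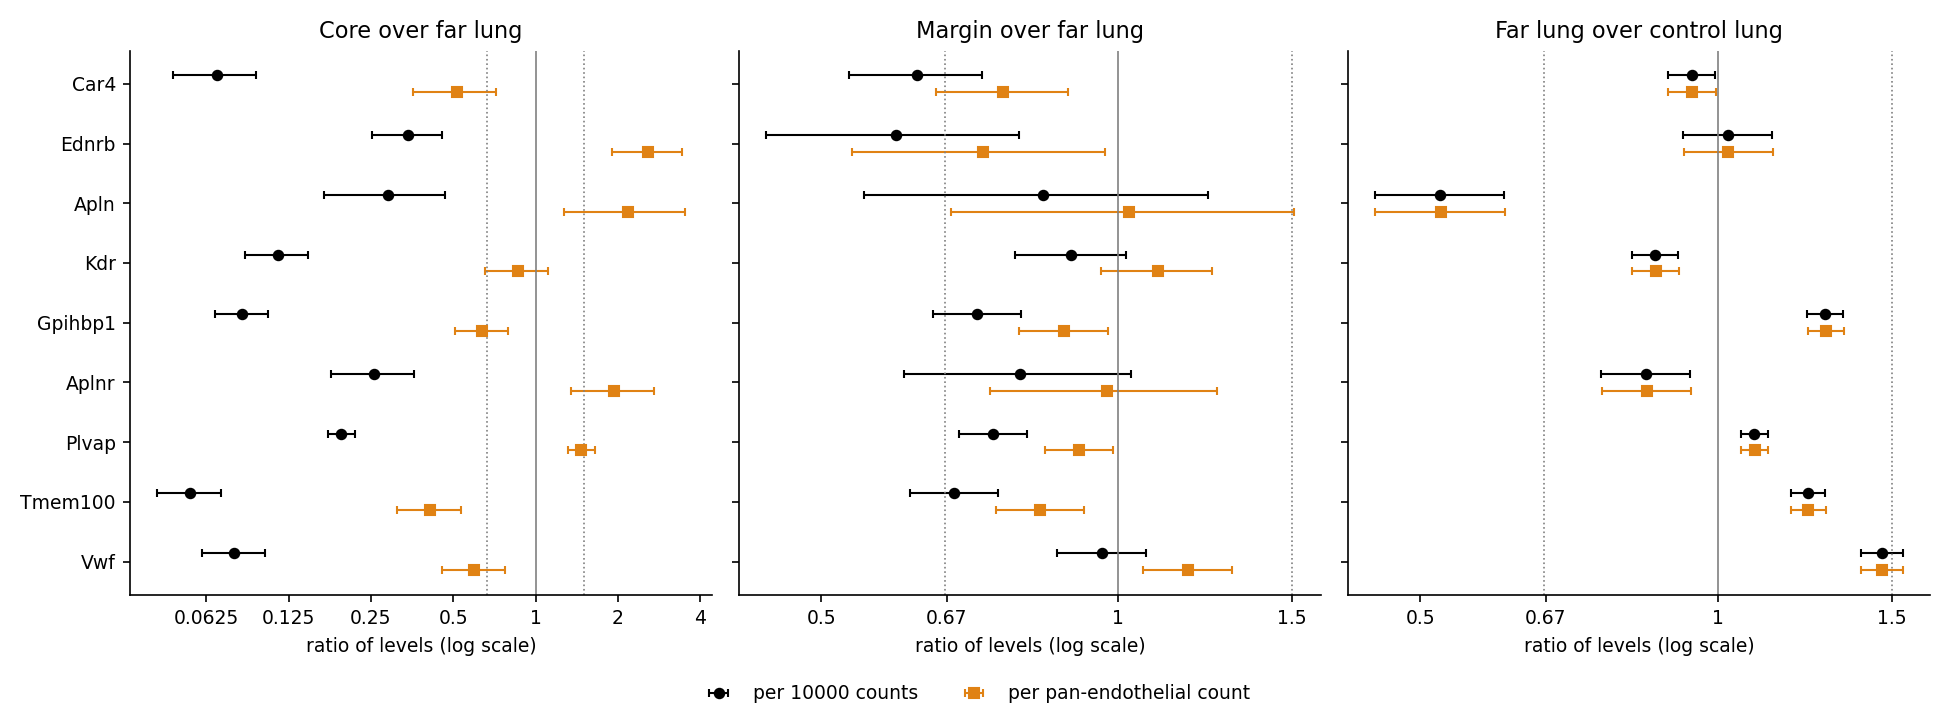
Ratios of the 9 genes on a log axis for core over far lung, margin over far lung and far lung over control lung. Circles are ratios of counts per 10000, squares are ratios per pan-endothelial count, bars are 95% intervals from the split of counts, and dotted lines mark 1.5-fold: in the core all 9 circles lie below 1, while the squares spread from Tmem100 at 0.410 to Ednrb at 2.58.

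Differences within a group are easiest to read as pairs of genes. Counts of Plvap over counts of Gpihbp1 were 3.86 in the core (3.03 to 4.96), 1.73 at the margin, 1.64 in the intermediate zone, 1.67 in far lung and 1.97 in control lung. The core value came from the larger metastasis, at 4.57 (3.47 to 6.10), while the smaller, at 1.71 (0.974 to 3.09), was close to far lung. The ratio of Car4, an aerocyte gene, to Plvap was 0.108 in the core, 0.258 at the margin, 0.324 in the intermediate zone, 0.309 in far lung and 0.357 in control lung. Here too the larger metastasis, at 0.0799 (0.0498 to 0.122), set the core value, and the smaller stood at 0.333 (0.158 to 0.656). The ratio of all aerocyte to all general capillary counts was 0.328 in the core and 0.324 in far lung, so the core to far change was alike for both sums.

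Inside the core the levels differed with the distance from its edge, where the outer border of the tissue does not count as an edge. Spots over 200 µm from the nearest non-core spot (54 spots, 51 of them in the larger metastasis) had a summed level of 1.29 CP10k for the 9 genes, spots 100 to 200 µm in (49 spots) 2.60, and those within 100 µm of the edge (54 spots) 5.43. The smaller metastasis gave 3, 13 and 20 of these spots in that order. Depth inside the core was thus mixed with the difference between the metastases, and the part of each was not tested. Outside, the level was 15.3 CP10k within 100 µm of the core, 21.2 at 100 to 200 µm and 24.8 at 200 to 300 µm, and beyond that rings ranged from 21.0 to 29.6. Plvap per 100 endothelial counts went the other way: 24.3 in the innermost spots, 17.4 and 14.4 toward the edge, and 10.7 in the nearest ring outside. Gpihbp1 per 100 endothelial counts was 1.01 in the innermost spots, 3.45 and 5.65 toward the edge, and 6.28 outside. In the innermost spots Plvap per endothelial count was 2.13 times its far-lung value (1.67 to 2.69) and Gpihbp1, with 3 counts there, was 0.148 of it (0.0306 to 0.434). The AT1 list followed the summed level of the 9 genes, from 1.26 CP10k innermost to 9.46 at the core's edge and 36.5 at 100 to 200 µm outside. The macrophage list stood at 13 CP10k innermost, 15.0 at the core's edge and 6.80 at 100 to 200 µm outside.

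**Figure D4:**
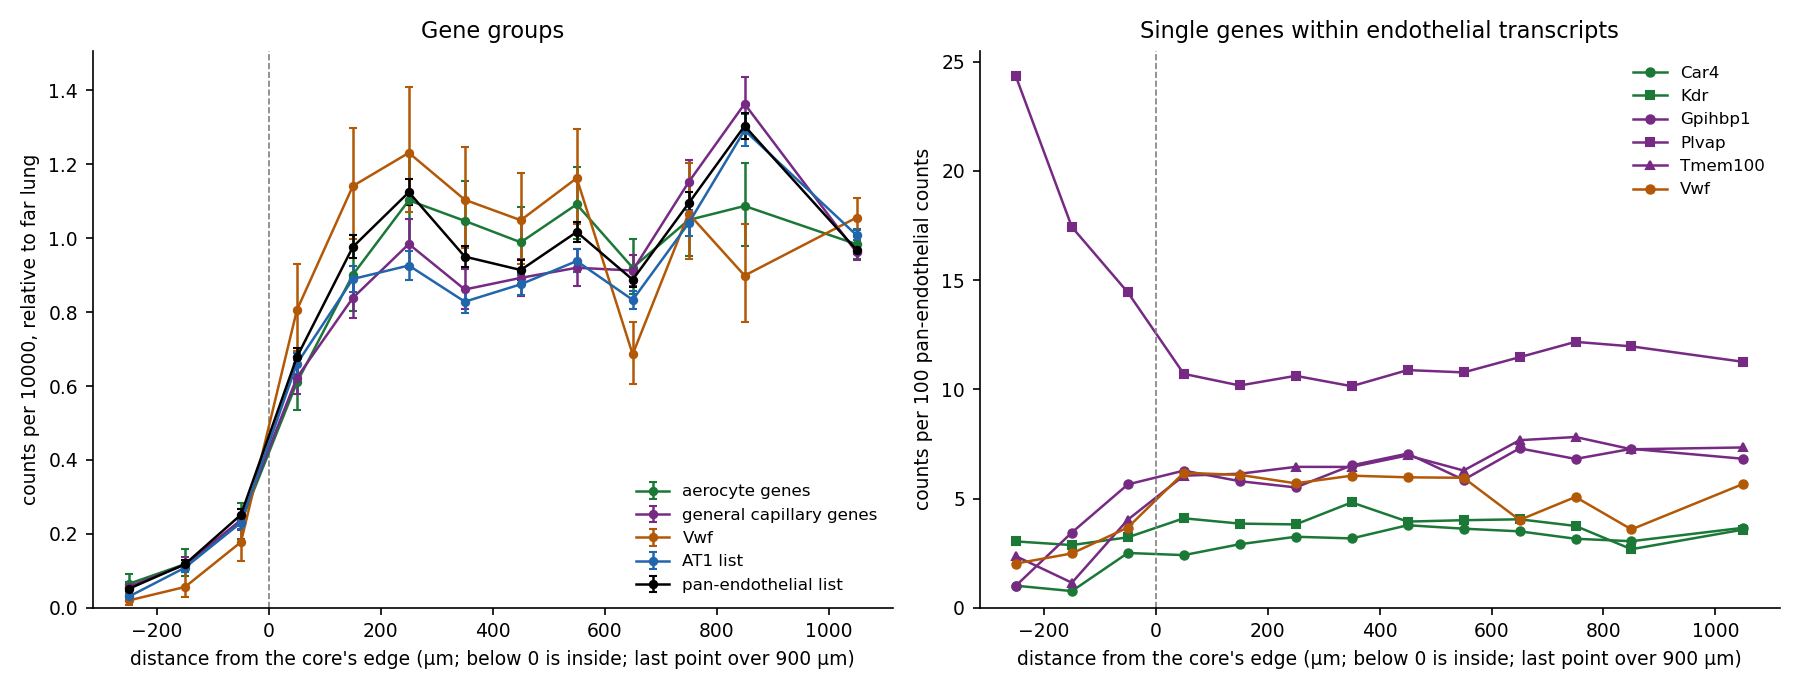
Left, counts per 10000 of the gene groups, Vwf, the AT1 list and the pan-endothelial list, each relative to far lung, with 95% Poisson intervals, against distance from the edge of the core in µm (negative inside). Right, 6 single genes per 100 pan-endothelial counts: all groups on the left are low inside the core, while on the right Plvap is highest in the innermost spots at 24.3 and Gpihbp1 is lowest there at 1.01.

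Both metastases had lower levels than far lung for each of the 9 genes, and the larger had the lower ratios for most. Vwf was at 0.0522 of its far-lung level in the larger and 0.348 in the smaller. For Car4 the ratios were 0.0493 and 0.257, for Gpihbp1 0.0697 and 0.232, and for Kdr 0.0940 and 0.313. Plvap was at 0.191 (0.169 to 0.215) and 0.238 (0.167 to 0.330), intervals that overlap. Apln and Aplnr rested on 1 and 3 counts in the smaller metastasis, so their ratios there carry wide intervals, up to 0.995 and 0.671. Depth ran with this: the median core spot held 17097 counts in the larger metastasis and 5815 in the smaller. The part of depth and size in the difference was not tested.

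At the margin 2 of the 9 genes, both of the aerocyte group, were at least 1.5-fold lower than in far lung, while 4.12% of all genes were lower by that much and 18.1% higher. Car4 was at 0.625 of its far-lung level (0.534 to 0.727) and Ednrb at 0.596 (0.439 to 0.793). Tmem100 (0.682), Gpihbp1 (0.720) and Plvap (0.747) lay just inside that limit, with intervals below 1. Kdr at 0.896 (0.786 to 1.02), Apln at 0.839 (0.553 to 1.23), Aplnr at 0.796 (0.606 to 1.03) and Vwf at 0.962 (0.866 to 1.07) had intervals that include 1. The aerocyte sum (0.746) and the general capillary sum (0.724) were alike there. Per endothelial count no gene passed 1.5-fold in either direction at the margin, where 1.79% of all genes were lower and 43.3% higher: values ran from Ednrb at 0.729 to Vwf at 1.18. The pan-endothelial list itself was at 0.818 there. Margin spots also held more RNA of dividing cells than far lung, with Mki67 at 5.02 times its far-lung level around the larger metastasis and 2.11 times around the smaller, and the macrophage list was at 1.99 times its far-lung level. Their part in the lower capillary levels at the margin was not tested.

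The count of 2 depends on where the core ends. With 8 clusters 80 spots led by Mmp12, Cxcl9 and Cxcl10 formed a cluster of their own outside the core, and 8 of the 9 genes were then at least 1.5-fold lower at the margin. Ratios there ran from Ednrb at 0.200 to Aplnr at 0.516, with Apln at 0.805. The margins of the metastases also differed: the summed level of the 9 was 0.872 of far lung around the larger, with 40 margin spots, and 0.694 around the smaller, with 58.

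In the intermediate zone no gene passed 1.5-fold, where 2.15% of all genes were lower and 4.04% higher by that much. Kdr was 1.14 times its far-lung level (1.03 to 1.25) and Vwf 1.11 times (1.03 to 1.21). Car4 was at 0.953, Ednrb at 1.02, Apln at 0.917, Gpihbp1 at 0.922, Aplnr at 0.867, Plvap at 0.907 and Tmem100 at 0.891. The median ratio of the 9 was 0.922, against 1.06 for all genes.

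Far from the metastases the genes split, and the comparison with control lung asks whether the capillary bed differed beyond them. Apln was the 1 gene past 1.5-fold: 0.252 CP10k in far lung (0.219 to 0.288, from 215 counts) against 0.481 in control lung (0.451 to 0.512, from 977), 1.91-fold lower. Of 13391 genes, 12.5% were lower and 2.66% higher by at least 1.5-fold, so a single lower gene of 9 is near the background share. The median ratio over the 9 was 1.02, against 0.881 over all genes. Vwf was highest relative to control lung, 3.07 against 2.09 CP10k, a ratio of 1.47 (1.40 to 1.54). Gpihbp1 was 1.28 times its control level (1.23 to 1.34), Tmem100 1.23 times (1.19 to 1.28) and Plvap 1.09 times (1.06 to 1.12). Kdr was at 0.864 (0.819 to 0.912), Aplnr at 0.846 (0.762 to 0.938), Car4 at 0.941 (0.890 to 0.995) and Ednrb at 1.02 (0.922 to 1.14).

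The aerocyte sum was 0.882 of control (0.852 to 0.913) in far lung and the general capillary sum 1.16 times it (1.14 to 1.18). These intervals do not overlap but cover counting error only. The aerocyte value was close to the median over all genes, 0.881, and Aplnr of the general capillary genes was at 0.846. Lists of other genes of these cell types were both lower and alike, at 0.829 for aerocytes and 0.850 for general capillary cells. The ratio of the members' aerocyte sum to their general capillary sum was 0.324 in far lung (0.313 to 0.336) and 0.426 in control lung (0.417 to 0.436). The 2 apelin genes were unequal too: Apln over Aplnr was 0.431 in far lung (0.365 to 0.507) against 0.696 in control (0.641 to 0.756), while in the core it was 0.486. Vwf over the other 8 genes was 0.148 in far lung and 0.109 in control lung. Per endothelial count the split was the same, with Apln at 0.525 and Vwf at 1.47. Apln was again the 1 gene past 1.5-fold, where 12.3% of all genes were lower and 2.67% higher. These differences stand between 2 sections whose tissue differed: cardiac muscle genes were at 0.52 CP10k in far lung and 34.1 in control lung, smooth muscle at 3.69 and 8.20, and neutrophil genes at 25.4 and 2.24. The AT1 list was at 41.0 and 52.1 CP10k. Without spots rich in airway, smooth muscle or cardiac genes, Vwf was 1.92 times its control level and Apln 0.540 of it. Whether the remaining tissue makeup takes part in these differences was not tested.

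**Figure D5:**
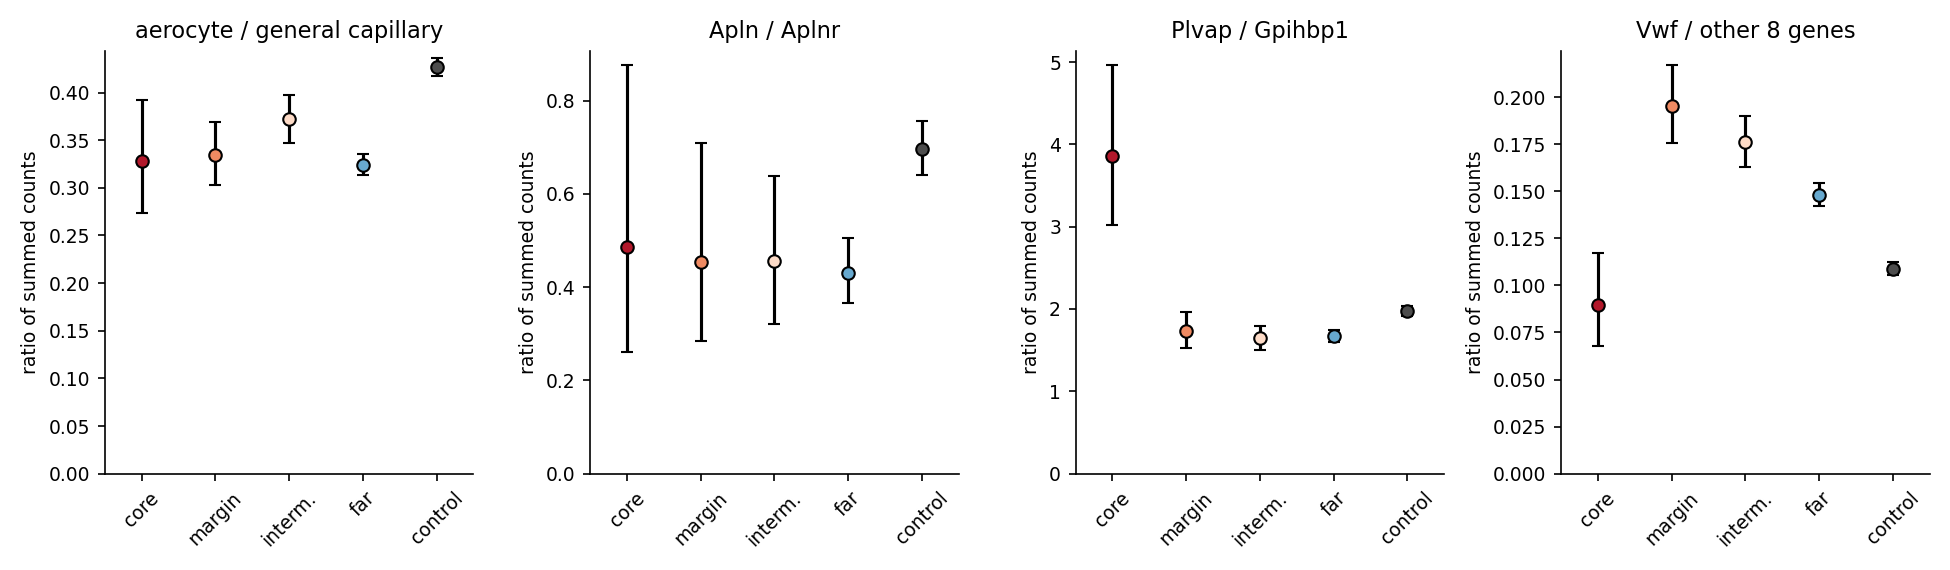
Ratios of summed counts in each zone for 4 pairs: aerocyte over general capillary genes, Apln over Aplnr, Plvap over Gpihbp1, and Vwf over the other 8 genes, with exact 95% intervals. Control lung is highest for the pairs of aerocyte and apelin genes, and Plvap over Gpihbp1 is highest in the core at 3.86, a value set by the larger metastasis (4.57, against 1.71 in the smaller).

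Within the lung the sums of capillary genes and Vwf differed in where they were high. Far-lung spots in the top 20% for the AT1 list had 1.47 times the aerocyte sum of the other far spots and 1.71 times the general capillary sum, and in control lung the ratios were 1.59 and 1.69. The pan-endothelial list was itself at 1.62 times in such far spots and 1.66 times in control lung. Per endothelial count the aerocyte sum was at 0.907 in far and 0.956 in control lung, and the general capillary sum at 1.06 and 1.02. Vwf was 1.25 times its level elsewhere in such far spots (1.13 to 1.37) and 0.868 in control lung (0.797 to 0.944). In spots in the top 20% for smooth muscle genes, Vwf was 1.77 times its level elsewhere in far lung (1.63 to 1.92) and 2.62 times in control lung (2.46 to 2.79). The aerocyte and general capillary sums were lower in those spots, at 0.827 and 0.760 in far lung and at 0.404 and 0.412 in control lung. Spots rich in venous genes had 2.83 times the Vwf of others in far lung and 2.31 times in control lung, and the capillary sums were also higher there, the aerocyte sum 1.43 and 1.32 times and the general capillary sum 1.55 and 1.42 times. In spots rich in airway genes the endothelial list was at 0.300 of the other spots in far lung and 0.339 in control lung. Airway genes made up as much as 7323 CP10k of a far spot, which by itself lowers the CP10k of all other genes there. As counts, the endothelial list totalled 6952 in the 136 airway-rich far spots and 43346 in the other 542. These totals cover unequal numbers of spots, so their ratio is not one of levels per spot. Kdr per endothelial count was 1.77 times (1.58 to 1.98) in far lung and 1.37 times (1.27 to 1.48) in control lung its value in other spots.

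Correlation over spots was described next. Of 4413 genes, those closest to Plvap by the mean Pearson's r of both sections were Inmt (0.650), Ramp2 (0.636) and Ager (0.633), Ager being an AT1 gene and Ramp2 a part of the adrenomedullin receptor of endothelium. Tmem100 lay closest to Ramp2 (0.587) and Epas1 (0.586), Gpihbp1 to Ramp2 (0.555), and Car4 to Ramp2 (0.505) and Epas1 (0.485), the hypoxia-inducible factor of endothelium. Kdr lay closest to Emp2 (0.363) and Aplnr to Tspan7 (0.295). Ednrb was closest to Ramp2, at 0.252. Vwf had Lyve1 (0.333), Cst3 and Cpe as its nearest genes. Among the members, Vwf had an r of -0.05 to 0.10 with the other 8 in control lung, and of 0.03 to 0.27 in the metastatic section, where its value with Plvap (0.27) was above that of Kdr with Plvap (0.24) and of Apln with Aplnr (0.07). These values were taken over 1888 control and 949 metastatic spots outside the core, which share a library and differ in depth within each section. The airway list also took a differing part of a spot's counts, from 224 to 2076 CP10k between the quartiles of far spots. Its part in these correlations was not tested. Apln had too few counts in the metastatic section to be ranked.

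Other genes of the same cell types gave the following counts. Over all genes, 22.1% were at least 1.5-fold lower in the core than in far lung. Between far and control lung, 12.5% were lower by that much and 2.66% higher. Of 7 further aerocyte genes, 7 were at least 1.5-fold lower in the core, where the list was at 0.153 of far lung, and 0 were called in either direction between far and control lung, where it was at 0.829. Of 4 further general capillary genes, 4 were lower in the core, with the list at 0.120, and 0 differed by that much between far and control lung, with the list at 0.850. A count of 0 in lists this short is near the shares over all genes. The sum of the general capillary list was below control in far lung, while Gpihbp1, Tmem100 and Plvap were above it. AT1 genes, which mark the epithelium next to aerocytes, were at 0.115 of their far-lung level in the core (7 of 7 lower), and pericyte genes, which mark the cells wrapped around capillaries, at 0.126 (6 of 6 lower).

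The summed counts of the pathways in which the members act were lower in the core, with genes of the VEGF and lipoprotein lipase lists that were not. Between far and control lung, 12.5% of all genes were at least 1.5-fold lower and 2.66% higher. In the core 22.1% were lower than in far lung by that much and 37.9% higher, with a median ratio of 1.24. Higher genes were thus common there. The endothelin list was at 0.386 of far lung, with 5 of 5 genes at least 1.5-fold lower. Of the 9 genes of the VEGF list with enough counts, 6 were lower and 1, the ligand Vegfb at 1.64 times, was higher, while the co-receptor Nrp2 was at 1.49 times. In far lung Vegfb was at 0.54 of its control level. Of the 5 genes that handle lipoprotein lipase, with Gpihbp1 its carrier, 2 were lower and 1 higher in the core: Angptl4, an inhibitor of the enzyme, was 2.00 times its far-lung level and the enzyme Lpl itself 0.92. The median ratio of these 5 was 0.809. In the BMP and ALK1 list, which holds Tmem100 itself, 8 of 8 were lower in the core, among them the receptor Acvrl1 at 0.08 and the inhibitory Smad6 at 0.05. Between far and control lung the BMP and ALK1 list was at 1.16, with Smad6 at 1.67 as its 1 gene past 1.5-fold. The general capillary sum had the same ratio, but both sums hold Tmem100.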

How the data were processed

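The authors made the deposited gene counts of both Visium sections with Space Ranger 1.3.1 against mm10, per the submitters' processing notes. Values are molecule counts, whole numbers per spot and gene, not normalized. The members and lists were chosen with earlier results of these data known. Spots were clustered by k-means (5 clusters, seed 11) on 20 principal components of 2000 variable genes, without endothelial or pathway genes. Core spots in groups under 5 were left out, and 858 barcodes, which are array positions, occur in both sections. Counts were summed over zones and given per 10000. Ratios carry exact 95% binomial intervals of the split of counts, which cover counting error only, and a gene was called past 1.5-fold with at least 50 counts in the 2 zones together. The genes named were the 9 members, the genes of fixed lists, and those 3 closest to each member in genes with at least 500 counts. Scripts (scikit-learn 1.9.0, scipy 1.17.1, numpy 2.4.6 and pandas 2.3.3 under Python 3.11.15) were tested on simulated data. Alternatives changed the library size, threshold, core, metastasis, far distance and spots kept. Gene coordinates are those of the GENCODE annotation on GRCm38, and promoter sequences those of RefSeq on GRCm38.p6.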

Additional observations from a re-analysis of the deposited data

How the results depend on the processing

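All 9 genes were at least 1.5-fold lower in the core under every alternative run, and the other counts moved with the zones and the scale. At the margin, 2 genes were lower by that much. The number was 5 with a library size without abundant genes, 1 when thinned to 5000 counts, 8 with the core as the top 5% of spots by the 4T1 score (35 spots) and 8 with 8 clusters. It was 5 around the smaller metastasis alone, 4 without airway, smooth muscle and cardiac muscle spots, 0 at 2-fold and 0 by counts per spot. In the intermediate zone 4 genes were lower with the top 5% core, against 0. For far lung against control lung, Vwf was 1 gene higher with a library size without abundant genes, with far lung over 800 µm and without airway, smooth muscle and cardiac muscle spots, and 2 genes (Gpihbp1 and Vwf) were higher by counts per spot, against 0. At 2-fold Apln was no longer called, leaving 0 genes lower. Shares of all genes past the limit are given for the main setting only. The counts under the alternatives thus have no background beside them and are not read as results about the 9 genes.

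Per pan-endothelial count, no gene was called at the margin. There 1 gene was higher and 1 lower when thinned, 3 higher and 2 lower with the top 5% core, 1 higher and 2 lower with 8 clusters, and 1 lower around the larger metastasis alone. Between far and control lung 1 gene was higher with the top 5% core, with far lung over 800 µm and without airway, smooth muscle and cardiac muscle spots, and 0 were lower at 2-fold. In the core 0 genes were higher in the smaller metastasis alone, against 3, and 3 were lower. Of these, 1 (Tmem100) is among the 4 of both metastases together, while Ednrb and Apln joined it on 0 and 1 counts there. With both metastases 1 was lower at 2-fold and 2 with the pan-endothelial list without Ecscr and Eng, against 4.

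Directions turned as follows. In the core of the smaller metastasis alone, per pan-endothelial count, Apln was at 0.636, Aplnr at 0.822, Ednrb at 0, Plvap at 0.858 and Vwf at 1.25. These rest on 1, 3, 0, 36 and 24 counts in that order, so the directions of Apln and Aplnr are not settled. In far lung against control lung, Car4 was at 1.03 with a library size without abundant genes and at 1.1 by counts per spot, where Kdr was at 1.01 and the aerocyte sum at 1.03. At the margin per pan-endothelial count, the top 5% core gave Ednrb 2.73, Plvap 1.39, the aerocyte sum 1.04, the general capillary sum 1.03 and all members 1.04, while 8 clusters gave Plvap 1.03 and Vwf 0.846, and the larger metastasis alone gave Plvap 1.03. In the intermediate zone of the larger metastasis alone, Gpihbp1 was at 1.31, Plvap at 1.22, Tmem100 at 1.08, the general capillary sum at 1.2 and all members at 1.22, and with the top 5% core Kdr was at 0.701 and Vwf at 0.619. The cause of these moves was not tested. Leaving abundant genes out of the library size shifted every ratio by -0.52 on the log2 scale in the core, by -0.23 at the margin and by 0.13 in far against control lung, and counts per spot shifted them by 0.32, 0.20 and 0.23. The core depth classes, counts per spot and the shorter pan-endothelial list were chosen after seeing the data. No paired analysis was possible because each condition had 1 section and no test was run. The counts of Apln, 18 in the core and 30 at the margin, limit what can be read of it there.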

Other observations

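Endothelial genes outside the capillary groups were not all low in the core. Arterial genes were, with 7 of 7 at least 1.5-fold lower and the list at 0.137 of far lung (0.117 to 0.161). Of all genes, 22.1% were lower in the core by that much and 37.9% higher. The venous list stood at 0.846 of far lung (0.774 to 0.923): 4 genes were lower, while Vcam1, a leukocyte adhesion molecule, was 3.65 times its far-lung level and Selp, which encodes P-selectin, 2.28 times. At the margin the venous list was 1.23 times its far-lung level (1.12 to 1.35), with Vcam1 at 2.68 and Selp at 1.54 (0.742 to 2.94, from 12 counts), and Slc6a2 lower at 0.61. Vcam1 and Selp are also made by other cells, and Pf4, a platelet gene that macrophages can express, was 1.57 times its far-lung level in the core, where the macrophage list was at 3.43. The part of those cells was not tested.

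The lymphatic list was at 0.318 of far lung in the core (0.255 to 0.392) and at 1.24 times control in far lung (1.15 to 1.34). The latter was the sum alone: of 4 genes tested 1 was higher, Lyve1 at 1.53 times its control level, 1 was lower, Reln at 0.633, and the median ratio was 0.912. Of all genes, 12.5% were at least 1.5-fold lower in far than in control lung and 2.66% higher. The tip cell list was at 0.350 of far lung in the core (0.292 to 0.416), with 2 of 4 genes lower and 0 higher, and Angpt2 was at 1.12 times its far-lung level in the core and at 0.64 of control in far lung, while Esm1 was 1.54 times its control level there. Slc6a2, the noradrenaline transporter, was 2.98 times its control level in far lung.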
